A study of Homo sapiens with 2 samples.

Results

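The olfactory receptor (OR) genes of chromosome 11 were examined for OTX2 binding in D283 tumorspheres. Members were the protein-coding genes of the GENCODE annotation on chromosome 11 whose symbol is OR followed by digits, letters and digits, a rule that uses no measured value. There were 171 such genes, of which 168 could be placed on GRCh38, out of 1309 protein-coding genes with a position on chromosome 11 and 19881 on all chromosomes. D283 is an established cell line of medulloblastoma (MB), a tumor of the cerebellum, with features of Group 3 and Group 4 MB. The cells were grown as tumorspheres in serum-free medium with EGF and bFGF and are labelled as untreated controls that express OTX2. The data were 1 chromatin immunoprecipitation (ChIP) library made with an OTX2 antibody and 1 input library from the same line, so no value has a replicate error and no difference below could be tested against a spread between samples. All values come from 1 cell line under 1 condition.

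Olfactory receptors are G protein-coupled receptors that bind odorants on the cilia of olfactory sensory neurons. Their genes lie in tandem clusters, most have the whole coding sequence in a single exon, and each sensory neuron expresses a single receptor allele while the others are kept silent. Class I receptors, the families numbered 51, 52, 55 and 56, resemble the receptors of fish, and class II holds the remaining families. OTX2 is a homeodomain transcription factor of the developing forebrain, midbrain and eye that is highly expressed in Group 3 and Group 4 MB. Its motifs named in the study are TAATCC and TAATCT.

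The sequence before the start of the gene record was given by RefSeq (GRCh38.p14) for 130 of the 168 members, as 133 promoters that run from 250 bases before to 50 bases after the start. In 62 of these 133 promoters (46.6%) the gene record began with ATG, the letters of a start codon, against 23 of 1125 (2.04%) for the other protein-coding genes of chromosome 11. For such members the recorded transcription start site (TSS) can be the start of the coding sequence. The records of OR5F1, OR5L2, OR4D6 and OR10V1, whose sequences are printed below, all begin with ATG. Distances below are distances to the recorded TSS. Only 1 of the 133 promoters (0.752%) overlapped an OTX2 peak, that of OR5F1, against 464 of 1125 (41.2%) for the other genes. The OR5F1 promoter is therefore shown first, at chr11:55994576-55994875 on the minus strand, with the 117 bases under the peak in capitals. It held no TAATCC or TAATCT on either strand.
OR5F1: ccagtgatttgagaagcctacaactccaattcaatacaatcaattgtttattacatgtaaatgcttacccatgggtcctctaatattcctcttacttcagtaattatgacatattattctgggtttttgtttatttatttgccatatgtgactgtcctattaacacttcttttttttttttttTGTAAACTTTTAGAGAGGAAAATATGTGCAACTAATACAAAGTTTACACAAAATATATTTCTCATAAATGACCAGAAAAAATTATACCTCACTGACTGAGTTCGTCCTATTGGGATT

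Among the members with a peak near the TSS, the promoters of OR5L2, OR4D6 and OR10V1 were the only ones of the 9 with a RefSeq promoter that held a motif. They are shown 5′ to 3′ on the gene's strand with the motif in capitals, and none of them overlapped a peak. The motif started 22 bases before the recorded TSS in OR5L2 (chr11:55826969-55827268, plus strand) and 60 bases before it in OR4D6 (chr11:59456711-59457010, plus strand). In OR10V1 (chr11:59713796-59714095, minus strand) the motif started 152 bases before the recorded TSS.
OR5L2: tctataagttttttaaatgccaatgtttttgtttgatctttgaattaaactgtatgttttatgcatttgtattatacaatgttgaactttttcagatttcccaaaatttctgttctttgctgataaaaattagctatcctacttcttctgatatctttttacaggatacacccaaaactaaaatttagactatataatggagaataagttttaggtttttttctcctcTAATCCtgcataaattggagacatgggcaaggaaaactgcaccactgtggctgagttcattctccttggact
OR4D6: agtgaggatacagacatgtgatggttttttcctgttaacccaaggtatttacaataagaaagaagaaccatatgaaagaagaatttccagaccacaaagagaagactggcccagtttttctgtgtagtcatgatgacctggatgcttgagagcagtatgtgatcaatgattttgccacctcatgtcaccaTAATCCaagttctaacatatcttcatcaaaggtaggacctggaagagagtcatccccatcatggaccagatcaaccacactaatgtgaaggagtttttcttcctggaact
OR10V1: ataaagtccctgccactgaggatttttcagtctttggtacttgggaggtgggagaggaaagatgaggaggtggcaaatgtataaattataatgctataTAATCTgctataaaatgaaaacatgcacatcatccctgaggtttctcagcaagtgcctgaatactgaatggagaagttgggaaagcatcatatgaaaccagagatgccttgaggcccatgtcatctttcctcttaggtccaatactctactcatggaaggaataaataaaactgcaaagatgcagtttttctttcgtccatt

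At least 1 of the 2 motifs, searched on both strands, was present in 42 of the 133 member promoters (31.6%), in 100 of 1125 promoters of other chromosome 11 genes (8.89%) and in 4482 of the 35116 promoters of the whole table (12.8%). The member promoters were poorer in G and C, with a median GC content of 37% against 62.3% for the other genes. A motif in this window is a match of letters and not a measured binding site.

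The MACS2 peak list from the ChIP library against the input library held 137412 peaks, 7138 of them on chromosome 11. The ChIP library kept 61259377 fragments after removal of duplicates and the input library 22521186. For each peak the list gives the pileup, the fragment coverage at the summit after the authors scaled the ChIP library to the input, and the fold enrichment over the local input. Pileups were read back as whole fragments, since each ChIP fragment adds 0.735 to the pileup and 100% of pileups lay within 0.01 of a whole number of fragments.

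OTX2 peaks were sparse at the OR genes of chromosome 11. A gene was counted when at least 1 bp of a peak lay in the window from 5 kb before to 2 kb after its TSS, and 12 of the 168 members were (7.14%, Wilson 95% interval 4.13% to 12.1%). Among the 1141 other protein-coding genes of the chromosome, 658 had a peak (57.7%, 54.8% to 60.5%), and among all protein-coding genes the share was 57.2%. The intervals cover counting over genes only, and neighbouring genes are not independent. Members made up 12.8% of the chromosome's protein-coding genes. Of its 7138 peaks, 14 lay in the windows of members and 831 in those of the other protein-coding genes. Merged into 1.16 Mb, the windows of the members held 12 peaks per Mb (exact Poisson 95% interval 6.57 to 20.2), and those of the other genes held 117 per Mb (109 to 125). The 3 members without a GRCh38 position, OR5M10, OR5T3 and OR8J1, were placed by RefSeq records, and 0 peaks lay within 5 kb of any of these records.

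**Figure D1:**
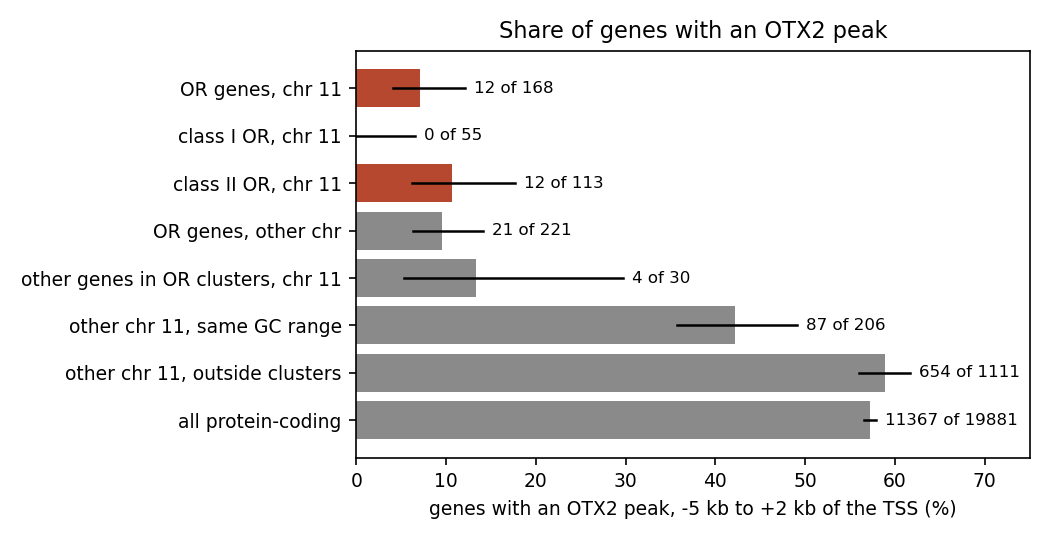
Share of genes with an OTX2 peak in the window of 5 kb before to 2 kb after the TSS, in %, with Wilson 95% intervals as lines and counts beside the bars. The OR genes of chromosome 11 (red) lie at 7.14%, with class I at 0 of 55, and other chromosome 11 genes outside the OR clusters lie at 58.9%.

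All peaks near members lay at class II genes. None of the 55 class I members had a peak (0%, Wilson upper limit 6.53%), and 12 of the 113 class II members did (10.6%, 6.18% to 17.7%). All 55 class I members lie in a single stretch of 1.83 Mb, so class and location cannot be told apart. By family, peaks lay near 5 of the 33 members of family 5, 4 of 25 of family 4, 2 of 22 of family 8 and 1 of 16 of family 10. Families 51, 52 and 56 of class I, with 22, 27 and 6 members, had 0, as had families 1, 2, 6 and 9, with 2, 5, 5 and 5 members. Of the members recorded with 1 exon, 11 of 91 had a peak, and of those with more exons 1 of 77, which was OR8B8. All 11 were among the 76 records with 1 exon and a length that is a multiple of 3. Within class II, records of up to 1200 bp had a peak in 11 of 61 cases and longer ones in 1 of 52. The splits by exon number and record length were not planned beforehand.

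The 12 members with a peak carried 14 peaks between 22 and 215 fragments high, and none of these peaks lay in the window of another protein-coding gene. All positions are of GRCh38 on chromosome 11. The tallest peak belonged to OR5D16 (55838752 to 55839738, plus strand), a class II receptor gene of family 5. It ran from 55840731 to 55841524 with 215 fragments (exact Poisson 95% interval 187 to 246). Its fold enrichment of 31.9 was above that of 98.9% of all peaks in the list. Its summit lay 2320 bp downstream of the TSS, beyond the gene and just past the window that the peak overlapped. A second OR5D16 peak, 2695 bp upstream, had 30 fragments and a fold enrichment of 4.63.

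OR4S1 and OR8H3 followed with 108 fragments each (88.6 to 130). The OR4S1 peak had its summit 1778 bp downstream of the TSS, outside the gene (48306223 to 48307152, plus strand), with a fold enrichment of 13.1. That of OR8H3 (56122373 to 56123311, plus strand) lay 1412 bp upstream. Its fold enrichment was 8.04 at the same height, and its local input of 9 was the highest among the 14 peaks, whose lowest possible value was 3.98.

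OR5I1 and OR5F1 had the peaks nearest to a recorded TSS, and both records begin with ATG. The OR5I1 peak, 638 bp upstream of the gene (55935456 to 55936400, minus strand), had 85 fragments (67.9 to 105) and was enriched 10.7-fold. The OR5F1 peak had its summit 83 bp inside the coding exon (55993681 to 55994625, minus strand), with 70 fragments (54.6 to 88.4), enriched 6.95-fold. This is the peak that reaches into the promoter printed above. OR4D6 (59456961 to 59457905, plus strand) was next, with its summit 1080 bp upstream, but with 30 fragments and a fold enrichment of 4.61.

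OR8B8 (124437445 to 124445696, minus strand) was the only member of the cluster near the end of the long arm with a peak. It had 74 fragments (58.1 to 92.9) in an intron 1238 bp downstream of the TSS, with a fold enrichment of 7.92, and 56 fragments 1809 bp upstream, with a fold enrichment of 8.46. OR5D18 (55819630 to 55820571, plus strand) had 72 fragments 2526 bp upstream and a fold enrichment of 10.3. The remaining 4 members lay at the low end. OR10V1 (59712916 to 59713845, minus strand) had 30 fragments 2391 bp upstream, in an intron of STX3, a syntaxin gene. OR5L2 (55827219 to 55828154, plus strand) had 23 fragments 2072 bp upstream. OR4X2 (48245104 to 48246015, plus strand) and OR4A15 (55367974 to 55368918, plus strand) had 22 fragments each (13.8 to 33.3), with a fold enrichment of 3.45 and summits 4118 bp and 4098 bp upstream.

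**Figure D2:**
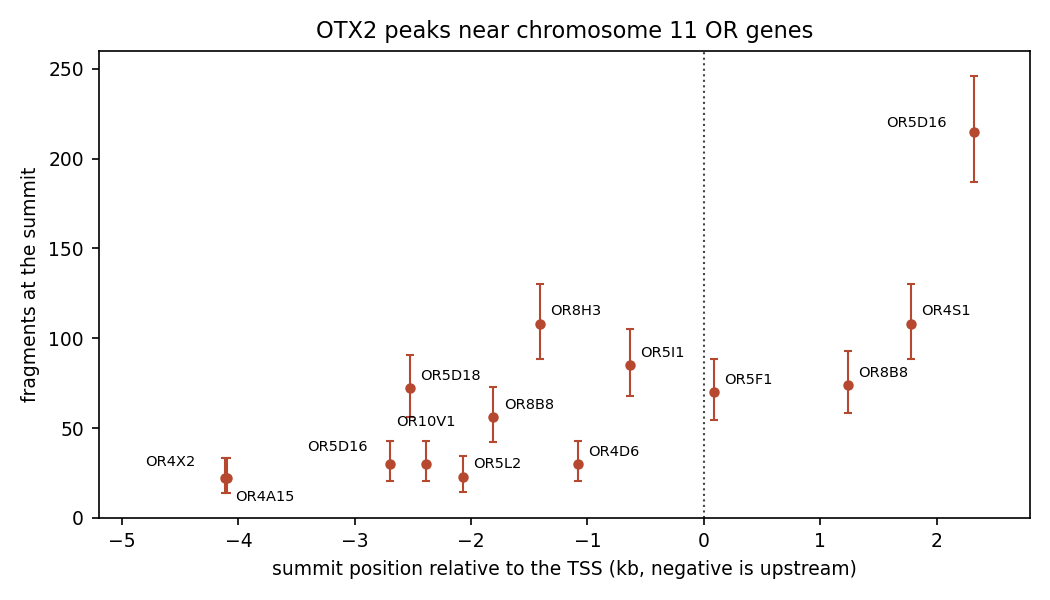
Fragments at the summit (vertical axis, exact Poisson 95% intervals) of the 14 OTX2 peaks near chromosome 11 OR genes, against the summit's position relative to the TSS in kb (negative is upstream). The tallest, of OR5D16 with 215 fragments, lies past 2 kb downstream, and the summits within 1 kb of a TSS are those of OR5I1 and OR5F1.

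The peaks near members ranged from low to high among all peaks. The 14 peaks had a median of 63 fragments (interval of the median 23 to 108), against 45 (43 to 47) for the 831 peaks near other chromosome 11 genes and 53 for all peaks. Their median fold enrichment was 7.43, against 5.71 near the other genes, and 8 of the 14 lay above the median of all peaks, 6.10. The interval of the median fragments includes the medians of both other sets, so a difference in height could not be seen with 14 peaks. The median length was 350 bp against 489 bp. The local input of 7 of the 14 peaks (50.0%) lay at its floor, against 32% near other chromosome 11 genes, and a fold enrichment at the floor is limited by the depth of the input library.

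Peak density was then compared along the chromosome. Members at most 0.5 Mb apart were joined into clusters, which gave 10 clusters of 2 or more members, 5.86 Mb in all, holding 167 of the 168 members. They were numbered along the chromosome. The remaining gene, OR2AT4 (75081753 to 75096876, minus strand), had its nearest peak 43.8 kb away. The clusters held 82 peak summits, 14 per Mb (exact Poisson 95% interval 11.1 to 17.4), and the chromosome outside them 7056, 54.6 per Mb (53.4 to 55.9). Without the widest stretch free of peaks, which spans the centromere from 50444517 to 55271993, the density outside was 56.7 per Mb.

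The density varied widely among the clusters. Cluster 1, from 4367263 to 6200186, holds the 55 class I members and was the emptiest of the long ones. It had 2 summits in 1.83 Mb, 1.09 per Mb (0.132 to 3.94), namely 1 of 69 fragments in an intron of MMP26, a matrix metalloproteinase gene, and 1 of 45 fragments between genes. From the MMP26 summit to the end of the cluster, 1.22 Mb held no further summit. This stretch holds OR52W1, whose end is the end of the cluster, and 35 other members. None of the 19 other protein-coding genes in cluster 1 had a peak either, 17 of which are not OR records. Cluster 2, from 6765626 to 6921994 with 8 members of families 2, 6 and 10, had 0 summits in 0.156 Mb, where the upper limit was 23.6 per Mb. Cluster 8, from 58023881 to 58508105 with 13 members, had 1 summit, 2.07 per Mb (0.0523 to 11.5). This summit of 89 fragments and a fold enrichment of 13.3 lay in an exon of OR9Q2, 4.85 kb from the recorded TSS and therefore outside the window.

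Cluster 7, from 55343201 to 56989843 with 45 members of families 4, 5, 8, 9 and 10, had 33 summits, 20.0 per Mb (13.8 to 28.1), and 7 members with a peak. Cluster 10, from 123753580 to 124582942 with 22 members, had 24 summits, 28.9 per Mb (18.5 to 43.1), but only 1 member with a peak. Cluster 9, from 59358895 to 59713845 with 8 members, had 17 summits, 47.9 per Mb (27.9 to 76.7), an interval that includes the density outside the clusters. Its members with a peak were OR4D6 and OR10V1, and its tallest peak, of 211 fragments, lay in an exon of OSBP, an oxysterol-binding protein gene. Apart from the summits nearest to OR4D6 and OR4D10, those of cluster 9 lay 25.7 to 97.9 kb from any member's TSS. They lay between OR4D9 and OR10V1, a stretch without members that holds OSBP and PATL1. Of the small clusters, cluster 3 (7795974 to 7941708, 4 members) had 2 summits and cluster 4 (48216810 to 48489722, 7 members) had 3. Clusters 5 and 6, with 2 and 3 members, had 0 summits in 0.0301 Mb and 0.105 Mb, too short for a density, and cluster 6 lies inside the peak-free stretch around the centromere.

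**Figure D3:**
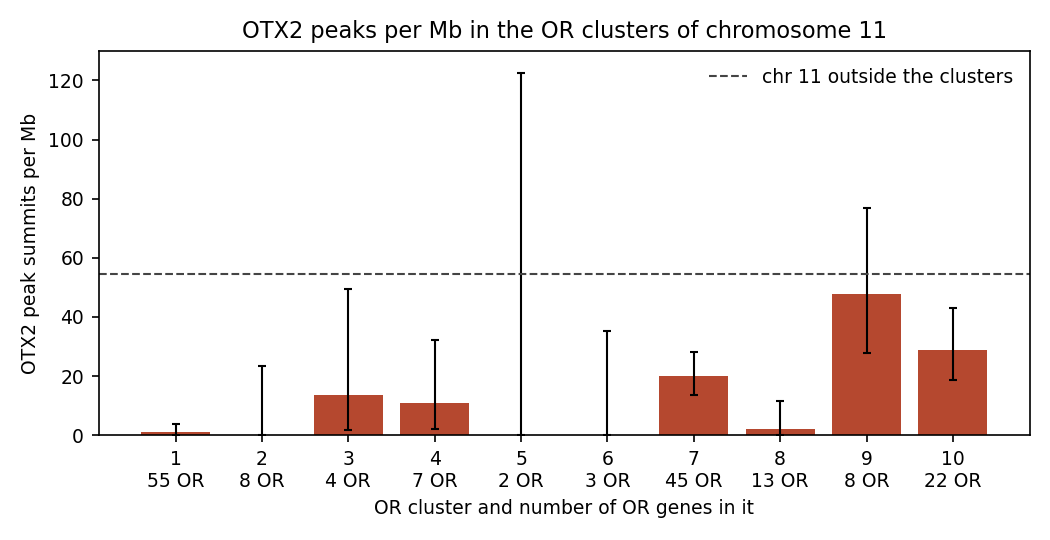
OTX2 peak summits per Mb in each OR cluster of chromosome 11, numbered along the chromosome with the number of OR genes below, with exact Poisson 95% intervals. Cluster 1 with 55 OR genes lies at 1.09 per Mb and cluster 9 with 8 at 47.9, and the dashed line marks 54.6 per Mb outside the clusters.

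Most peaks of the clusters lay outside the windows of the receptor genes, which cover 1.16 Mb beside 5.86 Mb of clusters. The density in these windows, 12 per Mb (6.57 to 20.2), was close to the 14 per Mb of the clusters. Of the 82 summits, 13 belonged to peaks in the window of a member, 74 lay outside protein-coding genes, and the median distance to the nearest member's TSS was 17.3 kb. Exons of OR genes held 3 summits, in OR5F1, OR8J2 and OR9Q2, and an intron held 1, in OR8B8. At least 10 kb from any protein-coding TSS, the clusters had 44 summits in 2.77 Mb, 15.9 per Mb, and the rest of the chromosome 5662 in 112 Mb, 50.7 per Mb. The other protein-coding genes inside the clusters had a peak in 4 of 30 cases (13.3%, 5.31% to 29.7%), against 654 of 1111 (58.9%) outside. These 30 include 6 OR records whose symbol ends in P and so falls outside the rule, none of which had a peak, and without them 4 of 24 genes had a peak (16.7%, 6.68% to 35.9%). Among these 4, the highest was TRIM51, a tripartite motif gene of cluster 7, with 280 fragments and a fold enrichment of 23 at 604 bp upstream of the TSS. OSBP had 2 peaks in its window, 1 of them with 91 fragments 197 bp upstream. PATL1, a gene of mRNA decay, had 66 fragments 250 bp upstream.

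The tallest peak of cluster 7 stood among the genes of the OR5D and OR5L subfamilies. This stretch was chosen after its values were seen. From 55773438 to 55839738 lie OR5D13, OR5D14, OR5L1, OR5D18, OR5L2 and OR5D16, and within 10 kb on either side there were 9 summits of 23 to 366 fragments, 4 of them with at least 100 fragments. The tallest, with 366 fragments (329 to 405) and enriched 27.0-fold, lay 4.88 kb from the TSS of OR5D14, downstream of the gene, and a peak of 302 fragments lay 7.35 kb upstream of that TSS. A peak of 163 fragments and a fold enrichment of 23.4 lay 3.02 kb downstream of the TSS of OR5D13. Neither OR5D13 nor OR5D14 counted as having a peak.

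The distance from the TSS to the nearest peak gave the same order as the shares. Its median was 46.7 kb for the members and 1.23 kb for the other protein-coding genes of the chromosome. For class I members the median was 224 kb, with the nearest at 18.1 kb, and for class II members it was 29.8 kb. Over 100 kb from any peak were 37 of 55 class I members, 18 of 113 class II members and 61 of 1141 other genes (5.35%). Among the members without a peak in the window, the nearest were OR10G6 with a gap of 2.23 kb (63 fragments), OR5D13 with 2.68 kb and OR5D14 with 4.55 kb, all downstream of the TSS. The farthest were OR4C46 with 668 kb and OR4A8 with 589 kb, both of cluster 6 near the centromere, and OR52B6 of class I with 604 kb.

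**Figure D4:**
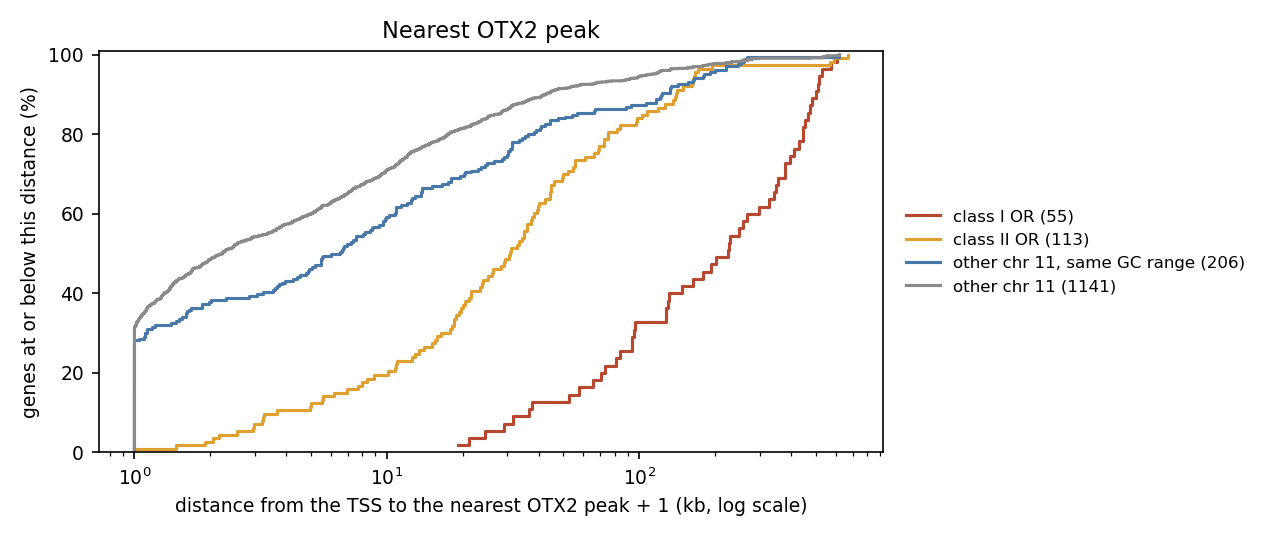
Cumulative share of genes (%) by distance from the TSS to the nearest OTX2 peak, in kb with 1 added, on a log axis. The medians are 224 kb for class I OR genes, 29.8 kb for class II, 5.27 kb for other chromosome 11 genes of similar GC content and 1.23 kb for all other genes, and the curves of class II and the other genes meet beyond 100 kb.

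Stretches poor in genes and without OR genes held more peaks by their median than those rich in OR genes. In 1 Mb bins of chromosome 11, the 7 bins with at least 10 members had 0 to 50 summits with a median of 13. The 7 bins with 1 to 9 members had 0 to 104 with a median of 35. The 122 bins with no member had 0 to 129 with a median of 55, and of these the 43 bins with at most 3 protein-coding genes had 0 to 98 with a median of 41. The 3 bins without members that had 0 summits lie inside the peak-free stretch around the centromere. The bin with the most members, 30, held 15 other protein-coding genes and 0 summits.

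**Figure D5:**
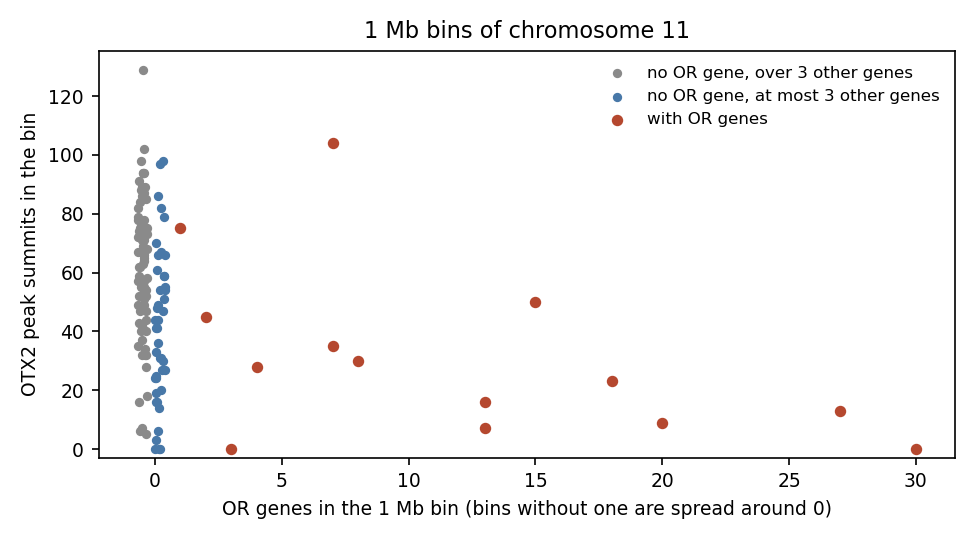
OTX2 peak summits per 1 Mb bin of chromosome 11 (vertical axis) against the number of OR genes in the bin. Bins with at least 10 OR genes hold 0 to 50 summits, and those with 1 to 9 hold 0 to 104. Bins without OR genes (grey and blue, spread around 0 for legibility) hold 0 to 129.

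Base composition and uniqueness of the sequence were measured beside these shares, in the same windows drawn on GRCh37, since that was the genome sequence at hand, and their part in the shares was not tested. The windows of the members had a median GC content of 37.5% (range 31.6% to 50.5%), against 48.9% for the other genes. Of the other genes, 206 had a window GC content within the 5th to 95th percentile of the members (33.8% to 42.5%). Their median was 39.9%, above the 37.5% of all members, so GC content was not matched within the range. Of these 206, 87 had a peak (42.2%, 35.7% to 49.1%). This was lower than the 57.7% of all other genes and above the 10 of 151 members (6.62%) in the same range. The number of TAATCC and TAATCT motifs in the windows was alike, with a median of 9 for members (4 to 20) and 8 for the other genes (0 to 23). All 168 members had a motif, and the 12 members with a peak had 7 to 20.

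Reads from near-identical genes can be placed wrongly. How such reads were treated before peak calling is not given in the sources used here. The share of 32-base words that occur once in GRCh37 was a median of 93.4% in the members' windows (47.5% to 100%) and 91.2% in those of the other genes. Among the 146 members with at least 80% such words, 12 had a peak (8.22%, 4.76% to 13.8%), and among the 22 members below that, 0. With at least 95% such words, 2 of 70 members had a peak (2.86%). Class I members, of which 0 of 55 had a peak, are among these 70. The share was not taken within class II.

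OR genes on other chromosomes had a similar share. Of 221, 21 had a peak (9.50%, 6.30% to 14.1%), an interval that overlaps that of chromosome 11. All 221 are of class II, and the class II members of chromosome 11 lay at 10.6%. The 28 peaks near them had a median of 42.5 fragments, and the tallest was that of OR1J2 on chromosome 9 with 325 fragments, 1687 bp upstream. Chromosome 9 had 8 of 26 OR genes with a peak, chromosome 1 had 5 of 60, and chromosomes 14, 6 and 12 had 0 of 27, 17 and 16.

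Genes that act with the receptors were counted from a list of 18 genes of olfactory signalling and receptor choice, and 10 had a peak, a share close to the 57.2% of all protein-coding genes. The values of its genes are given as a description. For ATF5, with 4 peaks in the window, and for CNGB1, LDB1 and KDM1A, with 2 each, only 1 peak is given. Of the signalling genes, ANO2, a calcium-activated chloride channel, had 113 fragments (93.1 to 136) at 911 bp downstream of the TSS, enriched 16.9-fold. CNGB1, a subunit of the cyclic nucleotide-gated channel, had 63 fragments 25 bp upstream, and GNAL, the olfactory G protein alpha subunit, had 42 fragments 164 bp upstream. CNGA4, a further channel subunit that lies on chromosome 11 close to cluster 1 (6234765 to 6244479), had 30 fragments (20.2 to 42.8) 253 bp downstream. RTP1, a chaperone of receptor transport, had 22 fragments 4726 bp upstream. Of the genes that act in receptor choice, ATF5, a transcription factor induced by receptor expression, had 166 fragments (142 to 193) 1889 bp upstream and a fold enrichment of 21.8. KDM1A, a histone demethylase, had 118 fragments 106 bp upstream, EBF1 had 60 fragments 544 bp upstream, LDB1 had 30 fragments 1321 bp downstream and EBF3 had 21 fragments 1121 bp downstream. ADCY3, CNGA2, OMP, RTP2, REEP1, LHX2, EBF2 and EBF4 had none, and OMP, a marker of mature olfactory neurons, is also on chromosome 11.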

How the data were processed

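OTX2 ChIP-Seq was performed on D283 tumorspheres with 1 ChIP library and 1 input library. Per the labels and file headers, the authors aligned the reads against GRCh38 (Bowtie2 2.2.4), called peaks with MACS2 2.1.0.20140616 (paired-end fragments, q-value cutoff 0.05, 1 fragment kept per position) and, per the methods, masked ENCODE blacklist regions. The deposited peaks are numbered without a gap from 1 to 137412, so the masking is not visible in the list, which was used as deposited. The deposited pileup is a scaled coverage signal, the deposited fold enrichment divides pileup by local input, each with 1 added, as a ratio, and the deposited −log10 q-value belongs to each peak (its p-value was not used). Local input was computed back from pileup and fold enrichment.

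Gene positions were the GRCh38 exon positions that GENCODE release 44 records, with the TSS at the 5′ end of the gene record. The genome sequence was GRCh37, used only for GC content, unique words and motif counts in windows of the GRCh37 gene records, and no coordinate was converted. Shares have Wilson and counts exact Poisson 95% intervals, which cover counting error only. No test was run, since there was 1 library per group. Members and lists were chosen with earlier results of these data known. Named genes were all members with a peak, the 3 nearest and 3 farthest members without, 3 other genes of the clusters with the highest pileup, and listed olfactory genes with a peak. Counting was tested on simulated peaks. The tools were numba 0.67.0, scipy 1.17.1, pandas 2.3.3, numpy 2.4.6 and matplotlib 3.10.9 in Python 3.11.15.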

Additional observations from a re-analysis of the deposited data

How the results depend on the processing

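No paired analysis was possible because the study has a single ChIP library and a single input library. The share of members with a peak fell to 1.79% (3 of 168) when the window was 1 kb on either side of the TSS, which left OR5I1, OR5F1 and OR4D6. A −log10 q of 5 or more gave 5.36%, without OR4A15, OR4X2 and OR5L2, and a fold of 5 or more gave 4.17%, also without OR10V1 and OR4D6. There were 12 members when the summit had to lie in the window, when every transcript start counted and with RefSeq records, whose strand came from GENCODE. Of these 6 alternatives, only every transcript start and RefSeq records could have added a member to the 12, and neither did.

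For the other chromosome 11 genes the share was 52.9% at the stricter q, 41.4% at the stricter fold, 48.5% in the window of 1 kb, 67.1% when every transcript start counted and 42.2% at similar GC content. For OR genes on other chromosomes it was 5.43% at the stricter fold and 2.71% in the window of 1 kb. The density in the clusters was 9.39 per Mb at the stricter fold, against 34.9 per Mb outside them, and 11.8 to 15.1 per Mb under the other 5 alternatives. Dropping peaks or shortening the window lowers these values by construction. The median pileup near members was 41.2 to 58.5 over 4 alternatives. Without the 6 OR records whose symbol ends in P, the share of other genes was 58.0%. That comparison, the one at similar GC content, the limit on unique words and leaving out cluster 9 or cluster 6 were chosen after seeing the data.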
